A study of Mus musculus with 90 samples.

Results

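Muscle myosin is built from heavy chains encoded by a family of closely related genes, and which family member a cell transcribes is a standard readout of muscle type and maturity. The 10 genes described here were taken from the deposited count table by symbol, out of 55011 symbols counted in 90 mouse RNA-seq libraries. They are Myh3 and Myh8, the embryonic and perinatal skeletal chains, and Myh2, Myh1 and Myh4, the adult fast chains IIa, IIx and IIb. Myh7 and Myh6 are the slow (beta cardiac) and alpha cardiac chains. Myh11 is the smooth muscle chain, and Myh10 and Myh9 are the nonmuscle chains IIB and IIA. All 10 symbols had a row in the table. Levels are given as CPM, a gene's counts relative to its library's total. They were scaled with TMM factors within skeletal muscle, heart, liver and sorted cells separately, so levels set across tissues carry separate scalings. Changes between groups are log2 fold changes with their standard error (SE), and a gene is called where its edgeR p-value, adjusted over all genes tested, is under 0.05.

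The series asked what the mechanosensitive channel Piezo1 does in muscle stromal cells during exercise and injury. Tibialis anterior (TA) muscle was taken 1, 3 and 7 days after an intramuscular injection of cardiotoxin (CTX), a snake toxin that destroys muscle fibres, in Pdgfra-Cre.Piezo1+/+ mice (wild type) and Pdgfra-Cre.Piezo1f/f mice (labelled mutant). There were 4 libraries per genotype at day 1 and 3 at each later day. Quadriceps (Qd, 3 libraries per genotype), perfused heart (3 per genotype) and perfused liver (4 per genotype) came from uninjured sedentary mice of the same genotypes, and 3 more hearts per genotype came from a separate cohort 3 days after CTX injury of skeletal muscle. Mesenchymal stromal cells (MmSCs, sorted as PDGFRa+Sca1+CD31-CD45- cells from hindlimb muscle) gave 44 libraries. They came from sedentary mice and mice after acute exercise (AEX) or exercise training (EXT), 8 to 10 weeks old where an age is given, and from both genotypes at rest, on day 1 after AEX and on day 1 after CTX. Others were cultured with 25 uM Yoda1, a Piezo1 agonist, for 2, 4 or 6 hours, or without it. The first AEX and EXT cohorts are titled WT with no further genotype, and no genotype is given for the unstimulated, 4 hour and 6 hour cells. The 2 hour cells and their vehicle controls came from wild-type mice carrying Pdgfra-Cre. Every mouse with a stated genotype carried Pdgfra-Cre, a recombinase driven by a gene of stromal cells rather than of mature fibres.

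A myosin molecule holds a pair of heavy chains, each with a motor head that splits ATP and pulls on actin and a long tail that assembles into the thick filament. In skeletal muscle the adult fast chains fill most fibres of the TA and quadriceps, while slow chain fibres are rare there. When fibres are destroyed, satellite cells divide and fuse into new fibres, which first transcribe the embryonic and perinatal chains and replace them with adult chains as they mature. Nonmuscle chains serve cell shape, adhesion and division in nearly all cells, and the smooth muscle chain marks the walls of vessels.

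Of the 7 sarcomeric genes, 5 lie in a row on the plus strand of chromosome 11, in GENCODE M21 (GRCm38, the mm10 build) coordinates: Myh3 at chr11:67078300-67102291, Myh2 at chr11:67171027-67197517, Myh1 at chr11:67200052-67224575, Myh4 at chr11:67238029-67260446 and Myh8 at chr11:67277124-67308634. Myh6 (chr14:54941921-54966927) and Myh7 (chr14:54970684-54994626) are neighbours on the minus strand of chromosome 14, Myh10 is at chr11:68691559-68816632 on the plus strand, Myh9 at chr15:77760587-77842175 on the minus strand and Myh11 at chr16:14194535-14291372 on the minus strand. Exons of the antisense genes Myhas, 9430073C21Rik, Gm49130 and Mhrt overlap exons of Myh1, Myh2, Myh6 and Myh7, and whether counting used the strand is unknown here, so reads of such pairs may not be separable. The sarcomeric chains are also similar in coding sequence, and reads shared between them could be lost or split in counting.

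The promoters of the chromosome 11 cluster are shown because its developmental and adult genes changed after injury in the ways given below. Each is the 250 bases before the RefSeq start (GRCm38.p6, plus strand), at chr11:67078050-67078299 for Myh3, chr11:67170777-67171026 for Myh2, chr11:67199852-67200101 for Myh1, chr11:67237562-67237811 for Myh4 and chr11:67276874-67277123 for Myh8. Capitals mark matches on either strand to TATAAA and to the 10-base motif of the MEF2 family of muscle transcription factors. They also mark the longest run of bases that Myh2, Myh1, Myh4 and Myh8 have in common.
Myh3: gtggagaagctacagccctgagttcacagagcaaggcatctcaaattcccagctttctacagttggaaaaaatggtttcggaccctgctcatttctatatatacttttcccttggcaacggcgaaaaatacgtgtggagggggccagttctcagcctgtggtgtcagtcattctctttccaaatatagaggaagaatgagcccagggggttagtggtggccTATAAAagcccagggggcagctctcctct
Myh2: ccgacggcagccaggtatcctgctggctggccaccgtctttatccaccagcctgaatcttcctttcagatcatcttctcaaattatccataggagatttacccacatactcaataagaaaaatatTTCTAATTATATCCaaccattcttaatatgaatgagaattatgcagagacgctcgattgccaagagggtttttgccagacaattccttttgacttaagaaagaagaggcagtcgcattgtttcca
Myh1: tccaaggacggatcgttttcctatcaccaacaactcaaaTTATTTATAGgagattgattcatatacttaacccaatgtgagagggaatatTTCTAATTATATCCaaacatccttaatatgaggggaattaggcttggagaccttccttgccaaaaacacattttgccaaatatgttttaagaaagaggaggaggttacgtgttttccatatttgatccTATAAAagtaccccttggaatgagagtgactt
Myh4: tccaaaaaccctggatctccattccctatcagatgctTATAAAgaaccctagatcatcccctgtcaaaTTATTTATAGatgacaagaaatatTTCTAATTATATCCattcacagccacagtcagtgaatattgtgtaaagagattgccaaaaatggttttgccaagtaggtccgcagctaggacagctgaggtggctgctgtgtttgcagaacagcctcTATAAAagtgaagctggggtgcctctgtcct
Myh8: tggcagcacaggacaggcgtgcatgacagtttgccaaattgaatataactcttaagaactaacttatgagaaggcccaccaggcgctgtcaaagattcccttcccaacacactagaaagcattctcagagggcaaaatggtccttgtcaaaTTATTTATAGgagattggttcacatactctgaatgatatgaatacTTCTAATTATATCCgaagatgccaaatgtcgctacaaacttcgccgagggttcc
That run, TTCTAATTATATCC, is 14 bases long and was chosen from these windows. Of 32544 RefSeq promoter windows of the same length, 4 held it (0.0123%), those of Myh2, Myh1, Myh4 and Myh8. It ended 112 bases before the start in Myh2, 147 in Myh1, 145 in Myh4 and 41 in Myh8. The Myh3 window lacked it, and the longest run shared by all 5 windows was TCAAATT, of 7 bases. A MEF2 match, held by 2.89% of all windows, was present in Myh1, Myh4 and Myh8, and in each of the 3 an opposite-strand TATAAA match lay inside it. TATAAA, held by 12.3% of windows, began 29 bases before the start in Myh3, 32 in Myh1 and 31 in Myh4, and a further forward match began 213 bases before the start in Myh4. The E-box CANNTG, bound by MyoD family factors among others and held by 66.2% of windows, occurred 2 times in Myh4 and 1 time each in Myh3 and Myh8. The 10-base CArG motif, held by 1.48% of windows, occurred in Myh4 only. Of the other members, Myh6, Myh7, Myh9 and Myh10 were in the table, none of them with a MEF2 match or the shared run, and Myh11 was not.

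Depth ranged from 4051973 to 10226407 counts per muscle library, 27925309 to 37148962 per heart, 27461930 to 38376123 per liver and 1806248 to 10258234 per sorted-cell library. Marker levels were set beside the tissue labels. The 7 skeletal fibre markers summed to 204317 to 227222 CPM in wild-type quadriceps, and the 6 cardiomyocyte markers to 29689.7 to 31148 CPM in wild-type uninjured heart. The fibre marker Ckm was also at a mean of 3290 CPM in those hearts. The liver gene Alb was at means of 66822 CPM in wild-type livers and 73.5 CPM in those hearts. Piezo1 itself stood at 25.1 CPM in wild-type and 25.9 CPM in labelled mutant TA at day 3 and was not called lower in any mutant comparison. In sorted stromal cells the mutant and wild-type means were 66.2 and 45.7 CPM at rest and 75.6 and 57.0 CPM after exercise. On day 1 after CTX they were 56.7 and 69.6 CPM, and none of these differences was called. Counts summed over a gene would not reveal the loss of some of its exons. The labels do not say which libraries came from separate animals, so p-values measure the spread between libraries, which may be technical.

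The 2 developmental chains were near their floor at day 1 and came up in different steps. Myh3, a marker of newly formed fibres, rose by day 3 with no further change called by day 7, while Myh8 rose by day 3 and again by day 7. In wild-type TA the libraries held 1.82, 3.22, 3.38 and 4.03 CPM of Myh3 at day 1, 347, 483 and 1005 CPM at day 3 and 214, 326 and 487 CPM at day 7. Every day 3 and day 7 library lay above every day 1 library, and the day 3 and day 7 groups overlapped. From day 1 to day 3 Myh3 rose 194-fold (log2 fold change 7.60 ± 0.53 SE, adjusted p = 8.19e-09). From day 3 to day 7 no change was called (log2 fold change -0.82 ± 0.43 SE, adjusted p = 0.133).

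Myh8 stood at 2.04, 1.25, 1.51 and 2.32 CPM in the wild-type day 1 libraries, 45.3, 52.9 and 168 CPM at day 3 and 289, 647 and 901 CPM at day 7. The 3 days did not overlap, and library 3 was the highest at days 3 and 7. The rise was 48.8-fold from day 1 to day 3 (log2 fold change 5.61 ± 0.59 SE, adjusted p = 1.27e-06) and 6.98-fold from day 3 to day 7 (log2 fold change 2.80 ± 0.51 SE, adjusted p = 1.99e-04). Per kb of coding transcript, the embryonic chain was above the perinatal chain at day 3 (101 against 14.4 CPM per kb) and the order of the means was the other way at day 7 (56.7 against 99.6), where the libraries of both genes overlapped. That order depends on the length used: per kb of merged exons, which are longer for Myh8, Myh3 made 0.736% and Myh8 0.686% of the sarcomeric mRNA at day 7.

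The labelled mutants showed the same calls. Their Myh3 libraries held 1.72, 2.56, 4.58 and 0.876 CPM at day 1, 118, 419 and 350.4 CPM at day 3 and 488, 393 and 481 CPM at day 7. The rise to day 3 was called (log2 fold change 6.91 ± 0.53 SE, adjusted p = 9.74e-09) and the step to day 7 was not (log2 fold change 0.61 ± 0.43 SE, adjusted p = 0.244). Myh8 stood at 2.7, 1.53, 2.29 and 2.92 CPM, then 14.4, 64.1 and 34.2 CPM and 1094, 681 and 980.0 CPM, with the days apart in every library. It rose to day 3 (log2 fold change 4.01 ± 0.58 SE, adjusted p = 1.78e-05) and again to day 7 (log2 fold change 4.58 ± 0.55 SE, adjusted p = 1.27e-06). Mutant library 1 was the lowest of day 3 for both genes, and it is the shallowest muscle library. Without any single library, the Myh3 rise to day 3 and both Myh8 rises were called again in each genotype.

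Genes of new fibre formation moved with the developmental chains in wild-type TA. From day 1 to day 3, 14.1% of all genes tested were called higher. All 6 satellite cell and myoblast markers rose from day 1 to day 3 (median log2 fold change 3.71, against 0.0078 over all genes tested). Among them were Mymx and Mymk, which drive myoblast fusion (log2 fold change 8.04 and 7.78), and Myog, a regulator of differentiation (59.9 to 901 CPM). Of these 6, 4 fell from day 3 to day 7, including Mymx (log2 fold change -4.03), where 22.4% of all genes were called lower. Among the light chains, Myl4, the embryonic and atrial essential light chain, rose by day 3 (9.67 to 223 CPM, log2 fold change 4.5, adjusted p = 1.21e-08). Tnnt2, the cardiac troponin T that immature skeletal fibres also use, rose as well (4.04 to 185 CPM, log2 fold change 5.49, adjusted p = 8.85e-12).

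The adult fast chains fell by day 3. In TMM-scaled CPM, every wild-type library of day 7 held more of each than every library of day 1. That difference was not tested, and for Myh4 it depended on the scaling. With library totals in place of TMM factors, the Myh4 libraries of days 1 and 7 overlapped. Of the 10 members, 6 were called between days 1 and 3 in wild-type TA, 2 higher (Myh3, Myh8) and 4 lower (Myh4, Myh1, Myh2, Myh11), where 26.8% of all genes tested were called (14.1% higher and 12.6% lower). Between days 3 and 7, 7 were called, 6 higher (Myh1, Myh2, Myh4, Myh8, Myh10, Myh11) and 1 lower (Myh9), against 42.5% of all genes (20.1% higher and 22.4% lower). All 10 members passed the filter on low counts in the TA. In whole-tissue RNA, fewer fibres and less RNA per fibre cannot be told apart.

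Myh4, the IIb chain and the most abundant member in TA, was at 14453, 11583, 16940.3 and 16077 CPM in the wild-type libraries of day 1, 6163, 5911 and 10026 CPM at day 3 and 40903, 20414 and 23039 CPM at day 7. In these scaled values day 3 lay below day 1 in every library, and day 7 above both. With library totals, days 1 and 7 overlapped. Library 1 of day 7 was the highest by a wide margin. The day 3 level was 0.491 times that of day 1 (log2 fold change -1.03 ± 0.34 SE, adjusted p = 0.0272). The day 7 level was 3.86 times that of day 3 (log2 fold change 1.95 ± 0.37 SE, adjusted p = 1.35e-04).

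Myh1, the IIx chain, stood at 3292, 4441, 5227 and 6788 CPM at day 1, 2261, 2167 and 2851 CPM at day 3 and 15752, 20337 and 21249 CPM at day 7 in wild type. The 3 days did not overlap. It was 0.485 times the day 1 level at day 3 (log2 fold change -1.04 ± 0.31 SE, adjusted p = 0.0154) and then rose 7.94-fold (log2 fold change 2.99 ± 0.35 SE, adjusted p = 3.55e-07). Myh2, the IIa chain of oxidative fibres, was at 158, 203, 235 and 530.4 CPM, then 63.2, 90.4 and 138 CPM and 1021, 1842 and 1669.9 CPM. Its days did not overlap either, with library 4 of day 1 far above the other 3. The fall to day 3 was to 0.340 times the day 1 level (log2 fold change -1.56 ± 0.46 SE, adjusted p = 0.0172). The rise to day 7 was 15.7-fold (log2 fold change 3.97 ± 0.53 SE, adjusted p = 7.49e-06), the largest fitted change of the 3 adult fast chains.

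The rises of Myh4, Myh1 and Myh2 to day 7 were called again without each single library, in both genotypes. The wild-type falls to day 3 were not. Without library 4 of day 1 or library 1 or 2 of day 3, the edgeR adjusted p was 0.0597 to 0.0715 for Myh1 and 0.0668 to 0.0746 for Myh2. Without any of these or library 3 of day 1 it was 0.0560 to 0.125 for Myh4. With no filter on low counts, the 3 adjusted p-values were 0.0851, 0.0755 and 0.128. The direction was downward each time.

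In the labelled mutants, 2 members rose (Myh3, Myh8) and 5 fell (Myh4, Myh1, Myh2, Myh6, Myh11) between days 1 and 3, where 44.6% of all genes were called (22% higher and 22.6% lower). Between days 3 and 7, 7 rose and 1 (Myh9) fell, where 52.7% were called (25.8% higher and 27% lower). Myh4 held 14491, 17692, 21645 and 20717 CPM at day 1, 543, 1660.1 and 2047 CPM at day 3 and 21244, 33566 and 26626 CPM at day 7. Its day 3 level was 0.0758 times the day 1 level (log2 fold change -3.72 ± 0.39 SE, adjusted p = 4.11e-08), and it rose 19.1-fold to day 7 (log2 fold change 4.26 ± 0.41 SE, adjusted p = 5.62e-09). Myh1 held 3768, 4307, 6656 and 6698 CPM, then 338, 798 and 1010.4 CPM and 28386, 21704 and 15379.7 CPM. It fell to day 3 (log2 fold change -2.91 ± 0.34 SE, adjusted p = 2.58e-07) and rose to day 7 (log2 fold change 4.93 ± 0.39 SE, adjusted p = 4.01e-10). Myh2 held 204, 310.0, 332 and 468 CPM, then 13.5, 33.8 and 34.2 CPM and 1856, 1575 and 618 CPM. It fell to day 3 (log2 fold change -3.58 ± 0.51 SE, adjusted p = 1.58e-05) and rose to day 7 (log2 fold change 5.61 ± 0.57 SE, adjusted p = 1.57e-07). For each of the 3 chains, no day 3 mutant library reached the lowest library of either other day.

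**Figure D1:**
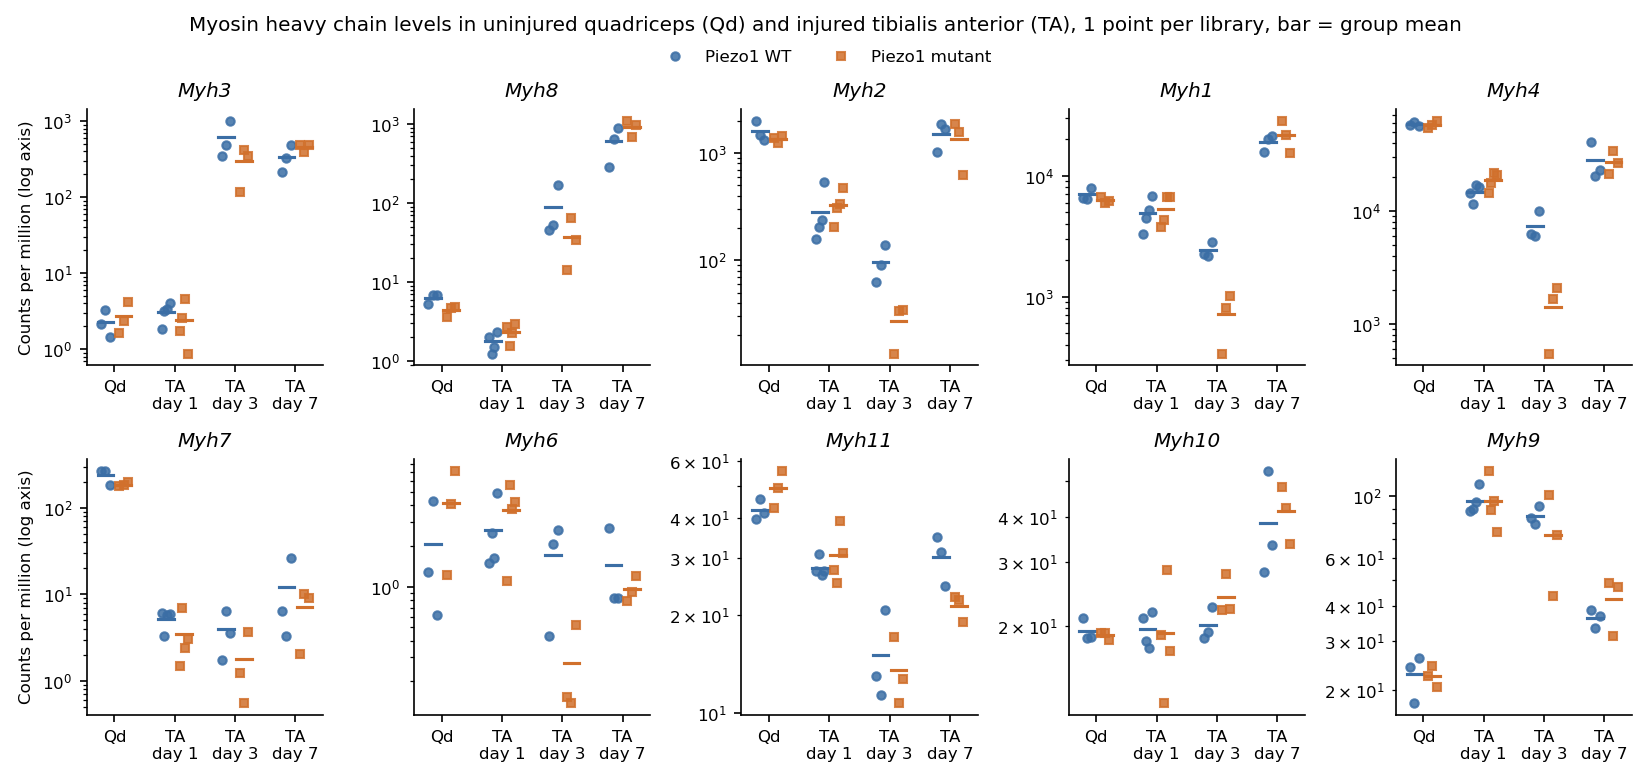
Level of each of the 10 heavy chains in CPM on a log axis, 1 point per library, for uninjured quadriceps and for TA at days 1, 3 and 7 after CTX, with circles for wild type, squares for labelled mutants and a bar at the group mean. Myh3 and Myh8 climbed from their day 1 level, and Myh2, Myh1 and Myh4 dipped at day 3, where the mutant points lay below all wild-type points.

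The slow and cardiac chains were minor in these muscles. Myh7 was at 268, 264 and 186 CPM in wild-type quadriceps and at 6.01, 3.32, 5.71 and 5.98 CPM in wild-type TA at day 1, 1.72, 6.48 and 3.58 CPM at day 3 and 6.48, 3.30 and 26.4 CPM at day 7. The TA levels overlapped between days, and library 3 of day 7 alone held the highest. Neither step was called in wild type (edgeR adjusted p = 0.706 and 0.0839). The second step was called without wild-type library 2 of day 7 (log2 fold change 2.06, adjusted p = 0.0276), and its value ranged from 0.31 to 2.19 with 1 library left out. In the mutants the step from day 3 to day 7 was called (log2 fold change 1.96 ± 0.79 SE, adjusted p = 0.0453) from 1.23, 0.549 and 3.65 CPM to 2.03, 10.1 and 9.12 CPM, groups that overlapped. That call ended without mutant library 1 or 2 of day 3 or library 2 or 3 of day 7 (adjusted p = 0.115 to 0.183), and with no filter on low counts (adjusted p = 0.177). Myh6, the alpha cardiac chain, stayed between 0.137 and 5.62 CPM over the 20 TA libraries (1 to 44 counts). It fell from day 1 to day 3 in the mutants, from 1.11, 5.62, 3.77 and 4.24 CPM to 0.154, 0.137 and 0.521 CPM (log2 fold change -3.67 ± 0.75 SE, adjusted p = 2.98e-04), the latter resting on 1, 2 and 6 counts.

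At day 3 the adult fast chains were lower in the labelled mutants than in wild type, and at days 1 and 7 no member was called. The comparison at day 3 called 4 of the 10 members, all lower (Myh4, Myh1, Myh2 and Myh6), where 8.98% of all genes tested were called and 6.37% were called lower. The genes called numbered 1392, from 431 to 1721 with 1 library left out and 257 with only the groups compared in the fit. These libraries are the same as those in the comparisons between days above. Myh4 had the largest difference of the 3 fast chains, with 543, 1660.1 and 2047 CPM in the mutant libraries and 6163, 5911 and 10026 CPM in the wild-type libraries. The lowest wild-type library held more than the highest mutant library. The fitted wild-type level was 5.16 times the mutant level (log2 fold change -2.37 ± 0.37 SE, adjusted p = 2.56e-04). For Myh1 the mutant libraries held 338, 798 and 1010.4 CPM against 2261, 2167 and 2851 CPM, again without overlap (log2 fold change -1.75 ± 0.34 SE, adjusted p = 0.00169). For Myh2 they held 13.5, 33.8 and 34.2 CPM against 63.2, 90.4 and 138 CPM, without overlap (log2 fold change -1.80 ± 0.49 SE, adjusted p = 0.0283).

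Mutant library 1 of day 3, the shallowest muscle library, was the lowest of all for these chains, and the differences were recomputed without it and without each other library. Myh4 remained called each time (log2 fold change -2.73 to -1.98, edgeR adjusted p = 1.46e-04 to 0.00248), and so did Myh1 (log2 fold change -2.08 to -1.41, adjusted p = 7.13e-04 to 0.0125). Myh2 lost its call without wild-type library 2 or 3 or mutant library 1 or 2 (adjusted p = 0.0540 to 0.155), and with no filter on low counts (adjusted p = 0.0980, leaving 3 members called in place of 4). Myh6 lost its call without the same libraries (adjusted p = 0.0966 to 0.205). Myh6 rests on few counts: its mutant libraries held 0.154, 0.137 and 0.521 CPM and its wild-type libraries 0.431, 2.07 and 2.63 CPM, which overlap (log2 fold change -2.56 ± 0.78 SE, adjusted p = 0.0399). Of these, mutant libraries 1 and 2 hold 1 and 2 counts.

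The developmental chains were also lower on average in the mutants at day 3, but neither was called. Myh3 had a log2 fold change of -1.03 ± 0.43 SE with an edgeR adjusted p = 0.152, and Myh8 one of -1.20 ± 0.49 SE with adjusted p = 0.143. In both genes the groups overlapped, with wild-type library 3 highest and mutant library 1 lowest. Myh7 (log2 fold change -1.11, adjusted p = 0.439), Myh9 (log2 fold change -0.23, adjusted p = 0.591), Myh10 (log2 fold change 0.28, adjusted p = 0.537) and Myh11 (log2 fold change -0.15, adjusted p = 0.739) were not called.

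At day 1, 0 of 10 members were called by edgeR, where 0.0774% of all genes were called (893 genes at an unadjusted p under 0.05), and 0 by DESeq2. Myh4 stood at 18636 ± 3238 CPM (SD, n = 4) in the mutants and 14763 ± 2358 CPM (SD, n = 4) in wild type, with overlap (log2 fold change 0.33 ± 0.31 SE, adjusted p = 0.940). At day 7, 0 of 10 members and 0% of all genes were called by edgeR (737 genes at an unadjusted p under 0.05), and 0 members by DESeq2. Myh4 was at 27145 ± 6177 CPM (SD, n = 3) in the mutants and 28119 ± 11149 CPM (SD, n = 3) in wild type (log2 fold change -0.057 ± 0.35 SE, adjusted p = 1.00). Myh1 was at 21823 ± 6504 CPM (SD, n = 3) in mutants and 19113 ± 2946 CPM (SD, n = 3) in wild type (log2 fold change 0.19 ± 0.33 SE, adjusted p = 1.00). The smallest unadjusted p of a member at day 7 was that of Myh11, at 22.8, 22.3 and 19.0 CPM in the mutants and 34.8, 31.3 and 24.7 CPM in wild type. The groups did not overlap (log2 fold change -0.51 ± 0.22 SE, adjusted p = 1.00).

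A test of whether the genotype difference varied with day called 2 members, Myh4 and Myh1, where 3.89% of all genes were called. Relative to day 1, the mutant minus wild-type difference in Myh4 was -2.70 on the log2 scale at day 3 and -0.39 at day 7 (edgeR joint test, adjusted p = 0.00345). In Myh1 it was -1.86 at day 3 and 0.074 at day 7 (adjusted p = 0.0171), and without wild-type library 3 of day 3 the adjusted p was 0.0709 and with no filter on low counts 0.0780. Myh6 had a day 3 value of -3.04 (adjusted p = 0.149) and was called with no filter (-3.04, adjusted p = 0.0456). Myh2 had a day 3 value of -2.02 (adjusted p = 0.154), Myh8 of -1.60 (adjusted p = 0.260) and Myh3 of -0.69 (adjusted p = 0.357).

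**Figure D2:**
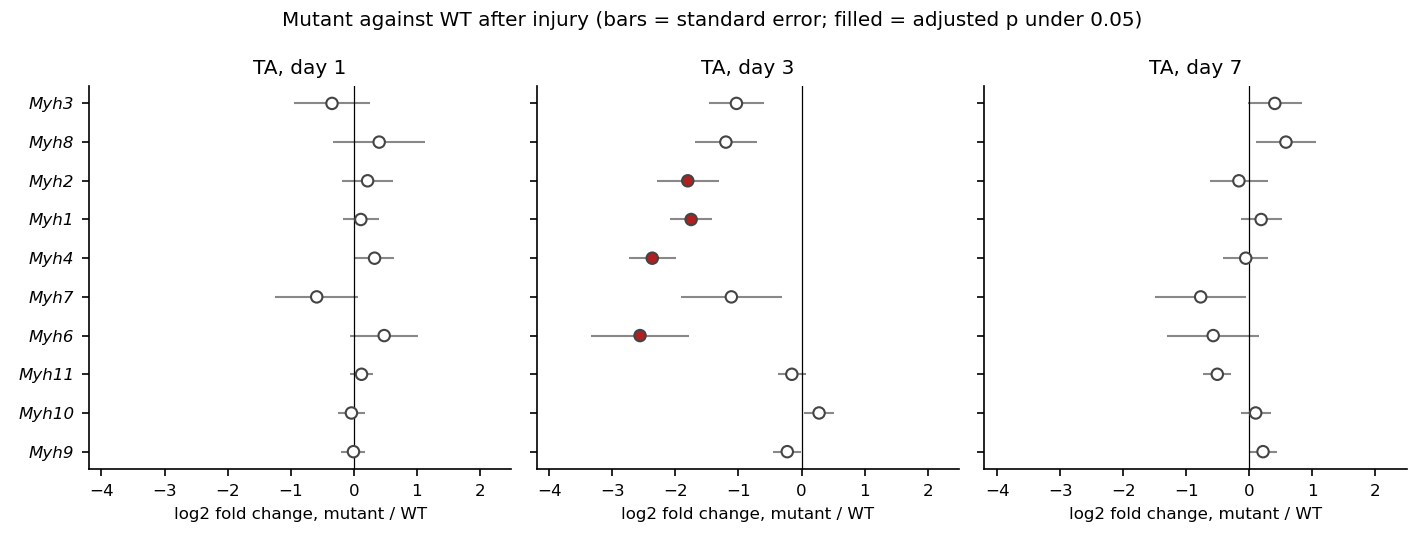
Log2 fold change of each heavy chain, labelled mutant over wild type, in TA at days 1, 3 and 7, with standard errors as bars and filled points for an adjusted p under 0.05. The 4 filled points are all at day 3, at -2.37 for Myh4, -1.75 for Myh1, -1.80 for Myh2 and -2.56 for Myh6.

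The partners of the heavy chains in the thick filament were lower in the same libraries. In that day 3 comparison, 6.37% of all genes tested were called lower. Of the 10 thick filament partners and myosin chaperones, 8 were lower in the mutants and 0 higher (median log2 fold change -1.56, against -0.016 over all genes). Among them were Mybpc2, the fast myosin binding protein C (1146 to 201 CPM, log2 fold change -2.50, adjusted p = 1.07e-04), and Myom1, a protein of the filament's midline (340.1 to 88.5 CPM, log2 fold change -1.92, adjusted p = 1.32e-04). The slow myosin binding protein C, Mybpc1, was lower too (719.6 to 199 CPM, log2 fold change -1.84, adjusted p = 1.52e-04). Of 6 striated light chains tested, 3 were lower, namely Mylpf, the fast regulatory chain (3437 to 1011 CPM, log2 fold change -1.75, adjusted p = 0.00169), Myl1, the fast essential chain (log2 fold change -1.65), and Myl4 (log2 fold change -1.12). Of 8 light chain kinases and phosphatase genes tested, 3 were lower, including Mylk2, the skeletal light chain kinase (log2 fold change -2.34). Of 12 fibre type regulators, 6 were lower, including Sox6, a repressor of slow genes (45.7 to 13.1 CPM, log2 fold change -1.76, adjusted p = 2.89e-04), and Tbx15, a factor of fast glycolytic fibres (log2 fold change -1.05). The 4 smooth and nonmuscle light chains gave 0 calls in edgeR. Of 3 other class II heavy chains tested, 1 was lower, Myh14, a nonmuscle chain (13.9 to 3.02 CPM, log2 fold change -2.13, adjusted p = 0.00879).

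Markers of the fibre were lower in the same day 3 libraries. All 7 skeletal fibre markers were lower in the mutants (median log2 fold change -1.85), including Pvalb, a calcium buffer of fast fibres (log2 fold change -2.83), and Ckm, muscle creatine kinase (log2 fold change -2.25). Their summed level was 3105 to 11237 CPM in the mutants against 23154 to 39813 CPM in wild type, with no gene at 0. Of the 6 satellite cell and myoblast markers 0 were called (median -0.080), with summed levels of 914 to 1571 and 1404 to 1544 CPM that overlapped. For 5 stromal markers 0 were called (2949 to 4780.0 against 4180.4 to 4771 CPM summed), and of 5 leukocyte markers 0 (6047 to 6573 against 4991 to 6342 CPM). Of 6 smooth muscle and pericyte markers 1 was lower (Acta2, log2 fold change -0.65), and of 4 endothelial and 4 slow fibre markers 0 were called in edgeR. The part of the fibre content of the tissue in the myosin differences was not tested.

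Shares of the heavy chain mRNA within each library do not depend on library scaling. They were computed from counts per kb of merged exons, over the 7 sarcomeric members. In wild-type quadriceps the mRNA was 87.7 ± 1.26% Myh4, 10.0 ± 1.44% Myh1, 2.02 ± 0.443% Myh2 and 0.252 ± 0.0443% Myh7 (mean ± SD, n = 3). In wild-type TA at day 7 it was 57.0 ± 12.8% Myh4 and 38.8 ± 11% Myh1, with Myh4 at 71.7%, 48.7% and 50.6% in the 3 libraries. The IIx share of TA at day 7 was thus spread widely between libraries, from 26.1 to 46% in wild type and from 34.1 to 53.0% in the mutants.

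The developmental share, Myh3 plus Myh8, took 4.22%, 5.93% and 7.78% of the sarcomeric mRNA in the wild-type day 3 libraries and 12.5%, 15.5% and 10.7% in the mutant ones. Every mutant library lay above every wild-type library, while the mean CPM of both genes was lower in the mutants. The mean shares were 12.9 ± 2.41% and 5.98 ± 1.78% in mutants and wild type, a difference of 6.93 percentage points (two-sided exact permutation p = 0.1, the smallest that 3 against 3 libraries allow, adjusted p = 0.367 over 11 share tests). At day 1 the share was 0.0152 ± 0.00490% in mutants and 0.0203 ± 0.00361% in wild type, and at day 7 1.89 ± 0.510% and 1.42 ± 0.731%, with overlap at both days (exact permutation p = 0.171 and 0.600).

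Within the adult chains (Myh1, Myh2, Myh4 and Myh7), the IIb chain's share at day 3 was 62.0%, 67.9% and 67.4% in the mutant libraries and 73.7%, 73.5% and 78.1% in the wild-type ones. The mutant libraries were all lower (means 65.8 ± 3.26% and 75.1 ± 2.57%, exact permutation p = 0.1, the smallest possible, adjusted p = 0.367). At day 1 the share was 78.0 ± 2.28% and 75.2 ± 5.07% (exact permutation p = 0.371) for mutants and wild type in that order. At day 7 it was 55.7 ± 11.3% and 57.8 ± 12.5% (p = 1.00, exact), and in quadriceps 88.8 ± 1.10% and 87.7 ± 1.26% (p = 0.300, exact). In these 3 comparisons the groups overlapped.

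**Figure D3:**
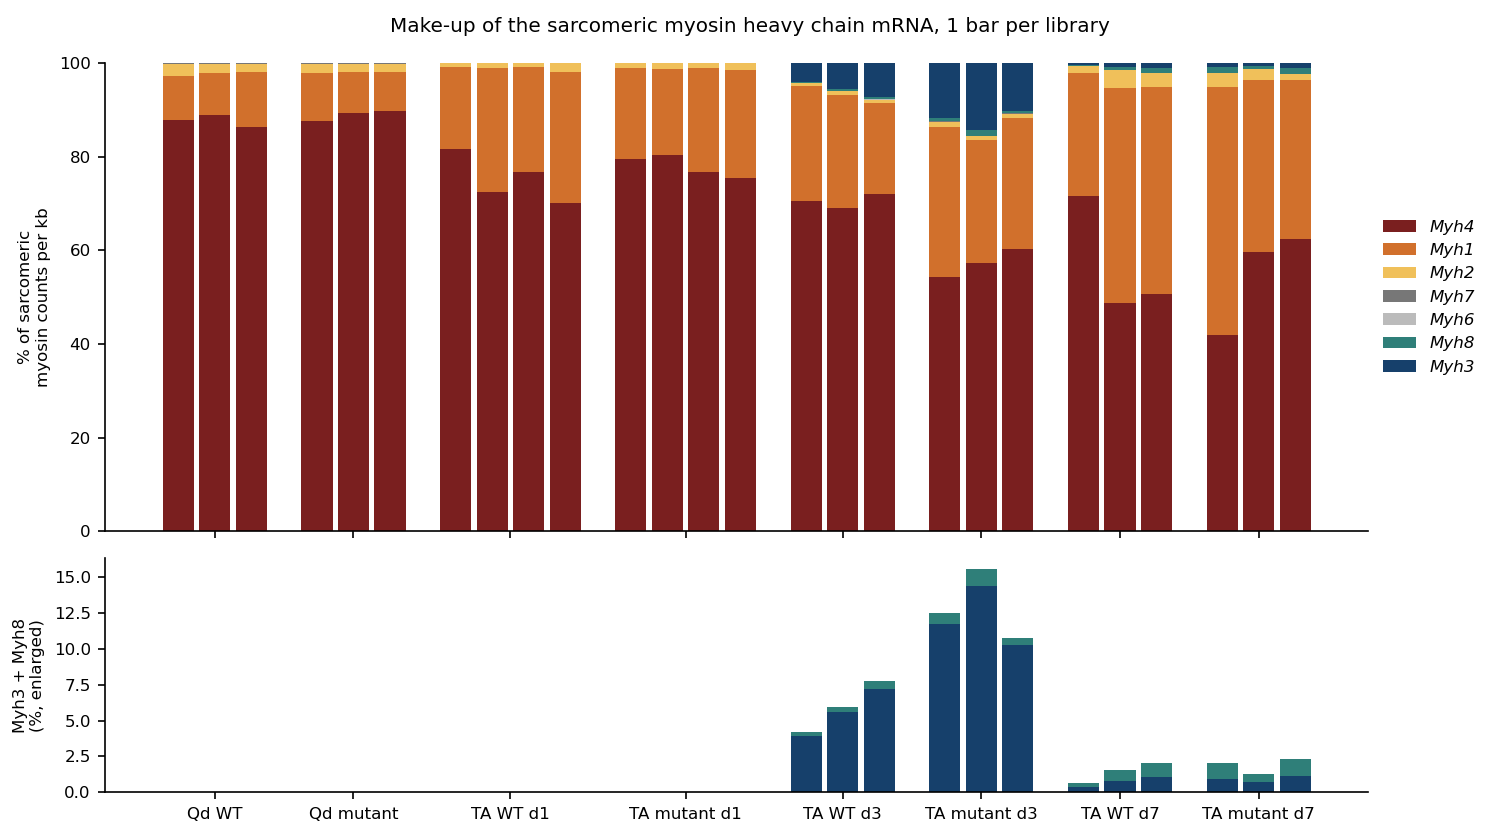
Share of each sarcomeric heavy chain among the counts per kb of all 7, 1 bar per library, for quadriceps and TA by genotype and day, with the developmental pair enlarged in the lower panel. The Myh3 and Myh8 segments are visible from day 3 on and are tallest in the 3 mutant libraries of day 3, at 10.7 to 15.5% against 4.22 to 7.78% in wild type.

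The nonmuscle and smooth muscle chains followed other courses. Myh9, nonmuscle IIA, was at 88.2, 89.9, 95.3 and 111 CPM at day 1, 83.3, 79.4 and 92.7 CPM at day 3 and 38.7, 33.4 and 36.9 CPM at day 7 in wild-type TA. No change was called to day 3 (log2 fold change -0.20, adjusted p = 0.530), and it fell by day 7 to 0.430 times the day 3 level (log2 fold change -1.22 ± 0.23 SE, adjusted p = 1.27e-04), with no overlap. In the mutants it went from 101, 43.5 and 72.8 CPM at day 3 to 48.7, 31.3 and 47.2 CPM at day 7, groups that overlapped (log2 fold change -0.77 ± 0.23 SE, adjusted p = 0.00578). Without mutant library 1 of day 3 the call was lost (log2 fold change -0.46, adjusted p = 0.0785). All 5 leukocyte markers also fell from day 3 to day 7 in wild type (summed level from 4991 to 6342 CPM at day 3 and from 622 to 1088 CPM at day 7), and their part in the Myh9 fall was not tested. Of all genes tested, 22.4% were called lower in that step.

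Myh10, nonmuscle IIB, went the other way. Its wild-type libraries held 21, 18.2, 17.4 and 21.8 CPM at day 1, 18.5, 19.3 and 22.5 CPM at day 3 and 28.2, 53.4 and 33.4 CPM at day 7. Days 1 and 3 overlapped, and every day 7 library was higher. The rise from day 3 to day 7 was 1.92-fold in wild type (log2 fold change 0.94 ± 0.24 SE, adjusted p = 0.00278) and 1.70-fold in mutants (log2 fold change 0.77 ± 0.24 SE, adjusted p = 0.00959). The mutant libraries held 18.9, 12.3, 28.5 and 17.1 CPM at day 1, 22.1, 27.9 and 22.3 CPM at day 3 and 48.2, 42.1 and 33.6 CPM at day 7, and without library 1 of day 7 the rise had an adjusted p = 0.0550.

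Myh11, the smooth muscle chain, was at 27.4, 30.8, 26.7 and 27.5 CPM at day 1, 13, 11.4 and 20.7 CPM at day 3 and 34.8, 31.3 and 24.7 CPM at day 7. The wild-type level dipped at day 3 below every library of the other days. In wild type it fell to day 3 (log2 fold change -0.93 ± 0.21 SE, adjusted p = 0.00156) and rose to day 7 (log2 fold change 1.02 ± 0.22 SE, adjusted p = 5.32e-04). The mutant libraries held 27.6, 25.2, 39.0 and 31.3 CPM, then 17.2, 10.7 and 12.8 CPM and 22.8, 22.3 and 19.0 CPM, with the same dip. Both steps were called in mutants as well (log2 fold change -1.20 ± 0.21 SE, adjusted p = 5.48e-05, and log2 fold change 0.67 ± 0.22 SE, adjusted p = 0.0146). The rise in mutants was lost without mutant library 2 of day 3 or library 1 of day 7 (adjusted p = 0.0516 to 0.0808).

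The calls of Myh10 and Myh11 between days 3 and 7 depended on the library scaling. With library totals in place of TMM factors the median log2 fold change of all genes was -0.72 in wild type and -0.82 in mutants (-0.030 and -0.017 with TMM). The changes of Myh10 and Myh11 became 0.27 and 0.33 in wild type (edgeR adjusted p = 0.364 and 0.204). In mutants they became -0.048 and -0.16 (adjusted p = 0.873 and 0.546), opposite in direction. The falls of Myh11 to day 3 and all other calls of members between days, except that of Myh7 in mutants, were called with library totals too. The step of Myh3 from day 3 to day 7, not called with TMM factors, was not followed on its own with library totals.

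Of the 6 smooth muscle and pericyte markers, 2 fell and 1 rose from day 1 to day 3 in wild type: Mcam (log2 fold change -1.48) and Rgs5 (log2 fold change -0.84), genes of pericytes and vessel walls, fell with Myh11, and Acta2, smooth muscle actin, rose (71.3 to 389 CPM, log2 fold change 2.42, adjusted p = 4.78e-10). Of 4 endothelial markers, 3 fell with Myh11, including Pecam1 (log2 fold change -1.14), and 3 rose from day 3 to day 7. Of all genes tested, 14.1% were called higher and 12.6% lower from day 1 to day 3. From day 3 to day 7, 20.1% were called higher. The part of these markers in the Myh11 course was not tested.

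In uninjured quadriceps, 0 of 10 members differed between genotypes in edgeR, where 0% of all genes were called (771 genes at an unadjusted p under 0.05), and DESeq2 called 0 members too. Per kb of coding transcript the wild-type order was Myh4 (9665 CPM per kb), Myh1 (1151), Myh2 (261), Myh7 (38.4), Myh11 (6.45), Myh9 (3.05), Myh10 (2.49), Myh8 (1.03), Myh3 (0.379) and Myh6 (0.336). Neighbours in that order were apart in all libraries down to Myh9, Myh9 and Myh10 overlapped, and Myh3 and Myh6 overlapped. The member with the smallest p was Myh7, at 177, 183 and 197 CPM in mutants and 268, 264 and 186 CPM in wild type, groups that overlapped (log2 fold change -0.34 ± 0.12 SE, adjusted p = 0.758). Myh11 came next (log2 fold change 0.25 ± 0.12 SE, adjusted p = 0.758). Myh4 levels were close (53570.0, 57014 and 62324 against 57964, 60613 and 55855 CPM, log2 fold change 0.018 ± 0.047 SE, adjusted p = 0.961).

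The wild-type TA was set beside the wild-type quadriceps in 1 fit, a comparison in which muscle, cohort and injury cannot be told apart. At day 1, 6 members were called, 1 higher and 5 lower, where 55.6% of all genes were called (29.9% higher and 25.6% lower). Myh9 was 4.23-fold higher in TA (log2 fold change 2.08 ± 0.22 SE, adjusted p = 4.91e-09). Myh7 was at 0.0219 times the quadriceps level (log2 fold change -5.51 ± 0.58 SE, adjusted p = 9.87e-08), Myh2 at 0.177 times (log2 fold change -2.50 ± 0.42 SE, adjusted p = 3.45e-05) and Myh4 at 0.254 times (log2 fold change -1.98 ± 0.31 SE, adjusted p = 2.51e-06). Myh8 (log2 fold change -1.83 ± 0.71 SE, adjusted p = 0.0338) and Myh11 (log2 fold change -0.59 ± 0.18 SE, adjusted p = 0.00743) were lower too. At day 7, 5 members were higher and 2 lower, where 25.7% of all genes were called (14.9% higher and 10.8% lower). Myh3 (342 against 2.29 CPM, log2 fold change 7.20 ± 0.62 SE, adjusted p = 5.83e-08) and Myh8 (612 against 6.30 CPM, log2 fold change 6.60 ± 0.62 SE, adjusted p = 1.75e-07) were higher in every TA library. Myh1 was 2.73-fold higher (log2 fold change 1.45 ± 0.31 SE, adjusted p = 7.09e-04), and Myh9 (log2 fold change 0.68, adjusted p = 0.0290) and Myh10 (log2 fold change 0.98, adjusted p = 0.00205) were also higher. Myh4 was at 0.484 times the quadriceps level (log2 fold change -1.05 ± 0.33 SE, adjusted p = 0.0183) and Myh7 at 0.0508 times (log2 fold change -4.30 ± 0.61 SE, adjusted p = 3.35e-05). Myh2 was not called (log2 fold change -0.072 ± 0.44 SE, adjusted p = 0.931).

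Several of these calls rested on 1 library or on scaling. For Myh8 at day 1 the edgeR adjusted p was 0.0338 and went to 0.0588 to 0.0826 without TA library 2 or 3 or quadriceps library 2 or 3. For Myh4 at day 7 it went to 0.0559 to 0.111 without TA library 2 or 3 or quadriceps library 2. For Myh9 at day 7 it went from 0.0290 to 0.0533 to 0.156 without TA library 1 or 3 or quadriceps library 1 or 2. With no filter on low counts, neither Myh8 at day 1 (adjusted p = 0.108) nor Myh4 at day 7 (adjusted p = 0.0983) was called. With library totals only, Myh8 at day 1 was not called, the median log2 fold change of all genes was 0.95 at day 1 and 0.42 at day 7 (0.12 and 0.090 with TMM), and Myh11 at day 1 turned from -0.59 to 0.25 (adjusted p = 0.238).

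The heart used 1 chain almost alone. Myh6, the fast alpha chain of the adult mouse ventricle, made up 99.5 ± 0.00620% of the sarcomeric mRNA in wild-type uninjured hearts, and Myh7, the beta chain that rises in fetal and stressed hearts, 0.494 ± 0.00613% (n = 3). Only 5 members (Myh6, Myh7, Myh9, Myh10, Myh11) passed the filter on low counts. The 5 skeletal chains of chromosome 11 reached at most 0.557 CPM, that of Myh8 in mutant library 1 of day 3 (19 counts), which also held the most Myh3 (17 counts). In wild-type uninjured hearts the per kb order was Myh6 (4366 CPM per kb), Myh7 (27.3), Myh11 (8.49), Myh9 (5.68) and Myh10 (3.64), each apart from the next in all 3 libraries.

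Myh6 stood at 27609, 27034 and 25426 CPM in wild-type and 23928, 22622 and 21679 CPM in mutant uninjured hearts, and at 27330.4, 26442 and 24200.1 CPM and 24742, 21323 and 20981 CPM in the hearts of day 3. The uninjured groups did not overlap, and the day 3 groups did. The genotype difference was not called in uninjured hearts (log2 fold change -0.23 ± 0.074 SE, adjusted p = 1.00, unadjusted p = 0.00717 in edgeR) nor at day 3 (log2 fold change -0.22 ± 0.074 SE, adjusted p = 0.103). It was called at day 3 without mutant library 1 (log2 fold change -0.30, adjusted p = 0.00718). With library totals (adjusted p = 0.0191), no filter on low counts (adjusted p = 0.0270) or a replicate block (adjusted p = 0.0024) edgeR called it too. Between the uninjured and day 3 hearts, which are separate cohorts, Myh6 differed by -0.038 in wild type and -0.025 in mutants on the log2 scale (adjusted p = 1.00 and 0.890).

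Myh7 was lower in the day 3 hearts of both genotypes, without a call in the main edgeR fit for either. Its libraries held 175, 170.3 and 164 CPM uninjured and 110.3, 124 and 119 CPM at day 3 in wild type, without overlap (log2 fold change -0.53 ± 0.12 SE, adjusted p = 0.238). In mutants they held 138, 151 and 109 CPM and 83.5, 107 and 108 CPM, again without overlap (log2 fold change -0.41 ± 0.12 SE, adjusted p = 0.0673). DESeq2 called both (adjusted p = 0.0251 and 0.0266). In wild type edgeR called the difference with no filter on low counts (adjusted p = 0.0116) and with only the groups compared (adjusted p = 0.00556). In mutants it did so without uninjured library 4 (adjusted p = 0.0180), with no filter (adjusted p = 0.0249) and with library totals (adjusted p = 0.0487). As a share of Myh6 plus Myh7, Myh7 was 0.494 ± 0.00613% uninjured and 0.354 ± 0.0357% at day 3 in wild type (exact permutation p = 0.1, the smallest possible, adjusted p = 0.367). In mutants it was 0.452 ± 0.0627% and 0.352 ± 0.0773% (exact permutation p = 0.200). The genotypes differed by -0.00202 percentage points, mutant minus wild type, at day 3 (exact permutation p = 1.00) and by -0.0423 uninjured (p = 0.400, exact).

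The member called in the heart was Myh9. It stood at 28.4, 17.1 and 19.7 CPM in the mutant hearts of day 3, against 36.6, 45.4 and 45.9 CPM in wild type at day 3, 62.6, 49.5 and 30.04 CPM in uninjured mutants and 48.6, 39.4 and 38.6 CPM in uninjured wild type. The mutant day 3 libraries were below every other heart library, and the uninjured mutants were the most spread. It was lower than in wild type at day 3 (log2 fold change -0.97 ± 0.23 SE, adjusted p = 0.0368), the only call among the 5 members tested, where 3.92% of all genes were called and 2.33% were lower. The 722 genes called became 24 to 1369 with 1 library left out and 10 with only the groups compared. It was also lower than in uninjured mutants (log2 fold change -1.12 ± 0.23 SE, adjusted p = 0.0191), again the only call of 5, where 4.75% were called and 2.7% were lower. Those 875 genes became 74 to 1462 with 1 library left out and 4 with only the groups compared. The difference between the genotype effects at the 2 states was -1.14 ± 0.33 SE on the log2 scale (adjusted p = 0.285; with no filter on low counts 2.50e-04, a call), and 0% of all genes were called in that test (2085 at an unadjusted p under 0.05). The call against wild type was lost without any wild-type library of day 3 or mutant library 2 or 3 (adjusted p = 0.0706 to 0.129). The call against uninjured mutants was lost without uninjured library 2 or 3 or day 3 library 3 (adjusted p = 0.0592 to 0.0991). With only the groups compared in the fit, the adjusted p-values were 0.0663 and 0.148.

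Between the uninjured genotypes edgeR called 0 of the 5 members and 0% of all genes (778 at an unadjusted p under 0.05), and DESeq2 0 members. Between day 3 and uninjured wild type edgeR called 0 members and 0.103% of all genes (990 at an unadjusted p under 0.05), and DESeq2 1, Myh7. Myh10 stayed between 25.2 and 32.6 CPM over the 12 hearts. Myh11 was at 36.6, 41.9 and 45.6 CPM in mutants and 44.7, 54.5 and 56.7 CPM in wild type at day 3 (log2 fold change -0.33 ± 0.13 SE, adjusted p = 0.156). Among related genes, Myh7b, a slow-type chain, was lower in mutant than in wild-type hearts of day 3 (59.6 to 39.5 CPM, log2 fold change -0.59, adjusted p = 0.0413). Mylk4, a light chain kinase gene, was lower too (153 to 72.5 CPM, log2 fold change -1.08, adjusted p = 0.0279), and Myl3, the ventricular essential light chain, was higher (8377 to 10345 CPM, log2 fold change 0.30, adjusted p = 0.0337). Of the 5 leukocyte, 5 stromal and 4 endothelial markers, 0 were called between genotypes at day 3 in edgeR, with summed leukocyte levels of 292 to 455 CPM in mutants and 236 to 306 CPM in wild type. Between day 3 and uninjured mutants, 2 of 4 endothelial markers were lower (Cdh5, log2 fold change -0.70, and Kdr, log2 fold change -0.57). Among the cardiomyocyte markers, Ryr2 was lower in every mutant than in every wild-type library of day 3 (555 to 828 against 1036 to 1172 CPM). Tnni3 (3789 to 4315 against 2903 to 3108 CPM) and Tnnt2 (7939 to 8333 against 6665 to 7456 CPM) were higher in every one. For Actc1, Mybpc3 and Nppa the genotypes overlapped. The part of all these markers in the Myh9 difference was not tested.

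**Figure D4:**
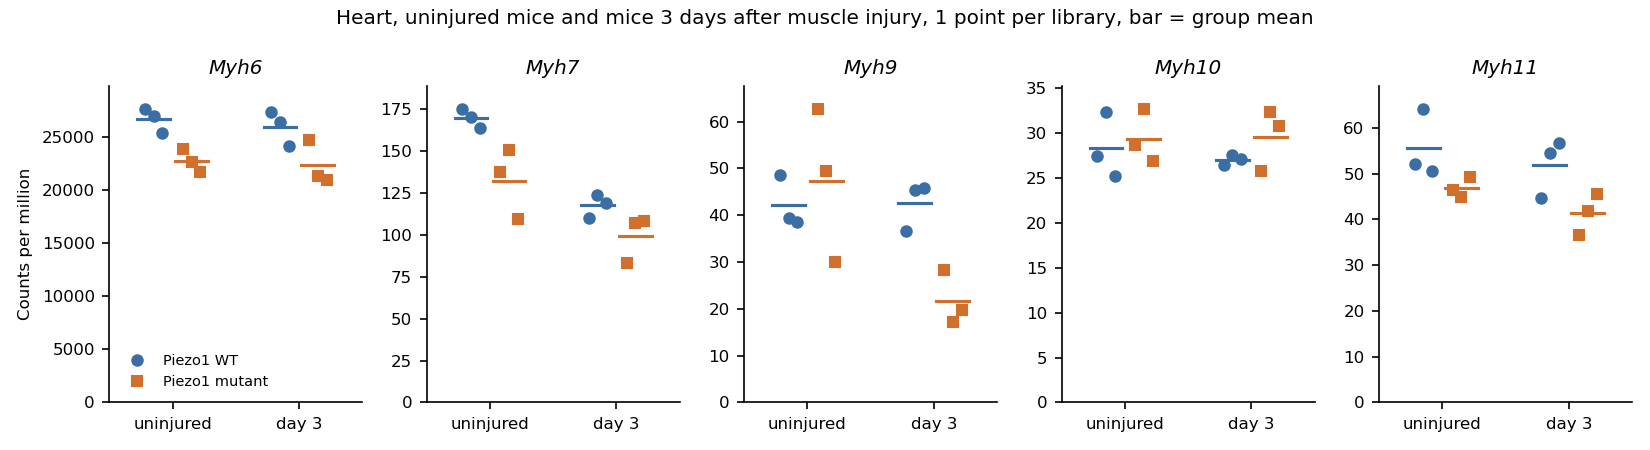
Level in CPM of the 5 heavy chains detected in heart, 1 point per library, for uninjured mice and mice 3 days after muscle injury, with circles for wild type, squares for labelled mutants and a bar at the group mean. The 3 mutant points of day 3 are the lowest of the Myh9 panel, at 17.1 to 28.4 CPM, and the day 3 points of Myh7 lie below the uninjured points of the same genotype.

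Sorted stromal cells transcribed the nonmuscle chains. Over the 44 libraries Myh9 was at 17.2 to 92.0 CPM (median 47.6) and Myh10 at 13.4 to 82.3 CPM (median 53.7). Per kb their medians were 6.41 and 6.89 CPM per kb, and their ranges overlapped. Myh11 stayed at or below 4.30 CPM. The 7 sarcomeric chains reached at most 5.89 CPM (Myh4, 44 counts) and were at 0 in 10 (Myh4) to 22 (Myh8) of the 44 libraries. The 7 skeletal fibre markers summed to 2.86 to 75.0 CPM in these libraries and were highest in the first AEX cohort (46.1 CPM and above). The 5 stromal markers summed to 18192 to 56114 CPM.

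No member was called in any of the 10 comparisons of sorted cells in edgeR or DESeq2. Of all genes, edgeR called 0% between the exercised genotypes (814 genes at an unadjusted p under 0.05) and 0.00675% between the resting ones, and from there up to 13.2% after 6 hours of Yoda1. Myh9 and Myh10 passed the filter on low counts in each of the 10, and Myh11 in all but the first AEX cohort and the CTX comparison. In the first cohort, Myh9 was at 56.8, 92.0 and 82.5 CPM after acute exercise and 54.4, 55.0 and 40.8 CPM in sedentary mice (log2 fold change 0.63 ± 0.19 SE, adjusted p = 0.170). Myh10 was at 41.8, 39.5 and 34.8 CPM and 65.0, 51.4 and 56.3 CPM (log2 fold change -0.57 ± 0.15 SE, adjusted p = 0.104). Neither pair of groups overlapped, the nonmuscle IIA chain standing higher and the IIB chain lower after exercise, and 0.736% of all genes were called there. Without exercised library 1 both were called (Myh9 log2 fold change 0.81, adjusted p = 0.00987, and Myh10 -0.62, adjusted p = 0.0332). Myh4, which passed the filter in this cohort alone, was at 5.17, 2.40 and 5.89 CPM after exercise and 2.66, 1.51 and 1.39 CPM at rest (log2 fold change 1.27 ± 0.46 SE, adjusted p = 0.226). The filter counts libraries of either group, and the higher exercised libraries helped Myh4 to pass it, so its fold change is not free of that selection. The summed fibre markers of the same libraries were at 61.1 to 73.2 and 46.1 to 75.0 CPM, and their part in the Myh4 counts was not tested.

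In the EXT cohort, where 0.484% of all genes were called, Myh9 was at 47.8, 42.7 and 34.1 CPM after training and 42.0, 37.0 and 33.3 CPM at rest (log2 fold change 0.14 ± 0.16 SE, adjusted p = 0.796). Myh10 was at 55.1, 56.9 and 45.7 CPM and 49.1, 60.3 and 59.3 CPM (log2 fold change -0.11 ± 0.14 SE, adjusted p = 0.829). Both pairs of groups overlapped.

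In the cohort with both genotypes, 0.992% of all genes were called after exercise in wild type and 0.162% in mutants. Myh10 was at 49.7, 58.4 and 53.9 CPM after acute exercise and 80.4, 75.0 and 62.0 CPM at rest in wild type, without overlap (log2 fold change -0.41 ± 0.18 SE, adjusted p = 0.362). In mutants it was at 56.9, 71.0 and 55.2 CPM and 55.2, 70.6 and 82.3 CPM, with overlap (log2 fold change -0.17 ± 0.18 SE, adjusted p = 0.885). Myh9 overlapped between exercise and rest in each genotype (adjusted p = 0.743 in wild type and 0.954 in mutants). Between genotypes neither chain was called at rest (Myh9 log2 fold change -0.22, adjusted p = 0.939, and Myh10 log2 fold change -0.061, adjusted p = 0.980) or after exercise (Myh9 log2 fold change -0.44, adjusted p = 0.947, and Myh10 log2 fold change 0.17, adjusted p = 0.968). On day 1 after CTX, 1.79% of all genes were called between genotypes. Myh10 was at 53.4, 55.8 and 54.7 CPM in mutant cells and 74.7, 67.7 and 57.5 CPM in wild-type cells, without overlap (log2 fold change -0.27 ± 0.11 SE, adjusted p = 0.249). Myh9 was at 47.6, 58.4 and 63.8 CPM and 66.7, 64.4 and 58.2 CPM, with overlap (log2 fold change -0.14 ± 0.12 SE, adjusted p = 0.666).

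After 2 hours of Yoda1, both nonmuscle chains stood lower than with vehicle, without a call. Myh9 was at 17.2 and 21 CPM in 2 libraries against 39.9, 26 and 36.1 CPM in 3 (log2 fold change -0.80 ± 0.33 SE, adjusted p = 0.151). Myh10 was at 13.4 and 22.6 against 30.5, 28.2 and 28.6 CPM (log2 fold change -0.67 ± 0.35 SE, adjusted p = 0.245). The groups did not overlap, and 11.2% of all genes were called in that comparison. Without Yoda1 library 2, which leaves 1 treated library whose spread is taken from the vehicle group, Myh9 had an adjusted p = 0.0495. In the other cohort, where 5.71% of all genes were called after 4 hours and 13.2% after 6, Myh9 was at 51.6, 58.2 and 51.1 CPM unstimulated, 57.2, 47.6 and 51.9 CPM after 4 hours and 51.0, 60.3 and 61.6 CPM after 6 hours, groups that overlapped (adjusted p = 0.978 and 0.515). Myh10 was at 42.2, 45.4 and 42.9 CPM unstimulated and 37.9, 36.4 and 35.9 CPM after 6 hours, without overlap (log2 fold change -0.22 ± 0.11 SE, adjusted p = 0.222). The 2 hour cells and the later cells are separate cohorts with their own controls, and their difference was not tested.

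**Figure D5:**
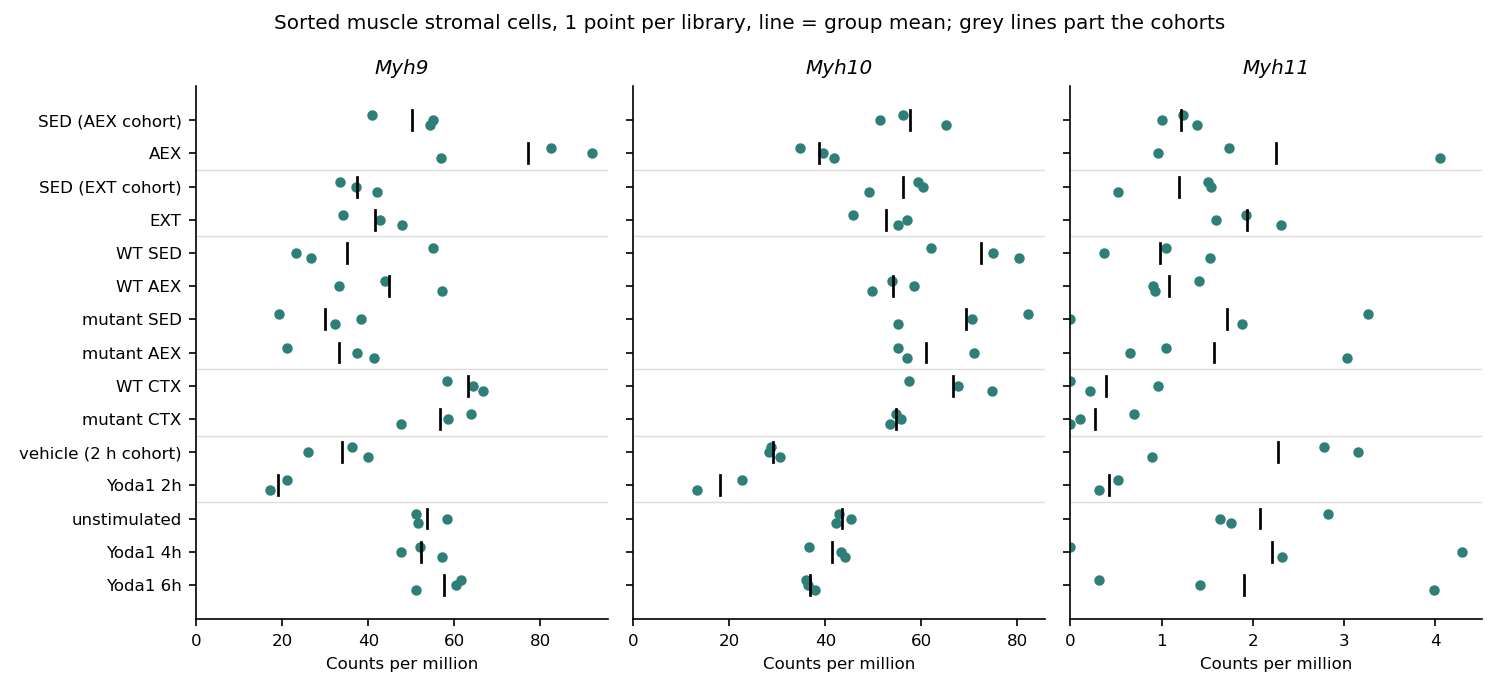
Level in CPM of Myh9, Myh10 and Myh11 in sorted stromal cells, 1 point per library and a line at each group's mean, with the cohorts separated by grey lines. In the first AEX cohort the exercised points lie to the right of the sedentary ones for Myh9 (56.8 to 92.0 against 40.8 to 55.0 CPM) and to the left for Myh10 (34.8 to 41.8 against 51.4 to 65.0 CPM).

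Across the 20 TA libraries the members fell into groups by their log2(CPM + 1) profiles, given as Pearson r without a test. The points share tissue, days and libraries. Myh1 and Myh2 were the most alike pair (r = 0.987), followed by Myh1 and Myh4 (r = 0.913), and the developmental chains were alike (Myh3 and Myh8, r = 0.887). Myh9 ran opposite to Myh8 (r = -0.833) and to Myh10 (r = -0.777). Among 8807 genes with a mean of at least 10 CPM, the 5 most like Myh3 were Pdgfrl, Ncam1, Grb10, Capn6 and Myl4 (r = 0.981 to 0.975), of which Ncam1 is an adhesion molecule of regenerating fibres and Myl4 the embryonic light chain. Those most like Myh8 were Trim35, Rsrp1, Maged2, Islr and Peg3 (r = 0.982 to 0.971). Myh4 was most like Pygm, Actn3, Rpl3l, Ckm and Pfkm (r = 0.994 to 0.991), which include muscle glycogen phosphorylase (Pygm), the fast alpha-actinin (Actn3) and muscle phosphofructokinase (Pfkm). Myh2 was most like Myh1, Actn2, Ndufv1, Ndufb9 and Pdha1 (r = 0.987 to 0.983), among them subunits of mitochondrial complex I (Ndufv1, Ndufb9) and of pyruvate dehydrogenase (Pdha1). Myh11 was most like Epas1, Robo4, Kcnj8, Pecam1 and Prex2 (r = 0.913 to 0.901), with Pecam1 and Robo4 known from endothelium and Kcnj8 from pericytes.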

How the data were processed

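RNA was measured in 90 libraries (29 groups): 1000 sorted cells or 2 ng of tissue RNA each, per the labels' protocols. The authors deposited whole-number counts per gene symbol. Reads were aligned with STAR 2.7.3a and counted with featureCounts on mm10, per the submitters' processing notes, with the annotation and strand setting not stated there. Columns matched a sample by name for 78 libraries and a group only for 12, since sample titles and library names disagree there. No replicate pair agreed within sampling noise (smallest chi-square per gene 2.75).

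The members and gene lists were chosen with earlier results of these data known. Counts were fitted with edgeR 4.0.16 (R 4.3.3; TMM, filterByExpr with a minimum count of 10, robust quasi-likelihood, Benjamini-Hochberg over all genes tested, called at an adjusted p under 0.05), with the 20 TA, 26 muscle, 12 heart or the libraries of 1 cohort per fit, 26 comparisons in all. The same fit was run on simulated counts only for the day 3 genotype comparisons of TA and heart and the first AEX cohort. Those counts had the same spread for all genes. Isoform shares used two-sided exact permutation tests over libraries. Lengths and positions came from GENCODE M21, which held 96.2% of the symbols, and promoter sequences from RefSeq (GRCm38.p6), which held 9 of the 10 members. Named genes were all members and, per list, the 4 called genes of at least 10 CPM that changed most, or, failing any call, 2 by lowest p. A part of these is printed. Precision is limited by 2 to 4 libraries per group, and a count of 0 allows up to 3 counts. Alternatives were RLE scaling, library totals, DESeq2 1.42.0, no filter, only the groups compared, a replicate block, each library left out, and shares from raw counts or from the longest coding transcript; library totals and the longest transcript were added after seeing the data. Members neither called nor at an unadjusted p under 0.05 were followed only through the counts of members called. Same-numbered libraries did not deviate together in every pair (r over 0.1 in each) in any comparison, so the numbers were not taken to pair them.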

Additional observations from a re-analysis of the deposited data

Results flagged for a closer look

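In TA, the genotype difference varied with day for Myh4 (-2.70 on the log2 scale at day 3 relative to day 1) and Myh1 (-1.86), by the edgeR joint test given above. The call of Myh1 was lost with no filter on low counts (adjusted p = 0.0780) and without wild-type library 3 of day 3 (adjusted p = 0.0709). Among 31 sets of 4 libraries (1 gene in 1 group) examined for a library far from the others, of which chance gives about 1 in 20, 2 held one: Myh7 in library 2 of wild-type TA at day 1 (3.32 CPM, the other 3 at 6.01, 5.71 and 5.98) and Myh8 in library 2 of wild-type liver (0.0288 CPM, 1 count, the other 3 at 0). That rate is for normally spread values. It does not apply to the liver set, where 1 count beside zeros is flagged by construction.

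The liver, which entered no comparison, held members in all 8 libraries: Myh6 at 32.5 CPM or more, Myh9 at 9.58 or more, Myh10 at 3.38 or more and Myh11 at 1.57 or more. Myh6 in liver was 0.169% of its level in uninjured hearts, and the 6 cardiomyocyte markers were at 0.123 to 0.197% of theirs, in CPM of library totals. Liver genes were also counted in hearts. In wild-type uninjured hearts Alb, Apoa1 and Ttr stood at means of 73.5, 12.8 and 10.2 CPM. In wild-type livers they stood at 66822, 11411 and 8562 CPM, each tissue being scaled separately. The source of these counts, in liver and in heart, was not tested.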

How the results depend on the processing

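RLE scaling changed no call of a member. With no filter on low counts, 3 members were called in wild-type TA from day 1 to day 3 in place of 6, 2 in hearts between genotypes at day 3 and 2 between day 3 and uninjured mutant hearts in place of 1 each, and 1 each in place of 0 in wild-type hearts between the states, in the heart test of both factors and in the first exercise cohort. Library totals gave 5 in place of 8 in mutant TA from day 3 to day 7, with Myh10 at -0.048 and Myh11 at -0.16 on the log2 scale, turned in direction, and Myh11 of TA day 1 against quadriceps at 0.25, and they gave 2 in place of 1 in both heart comparisons of the day 3 mutants. DESeq2 gave 1 in place of 0 in wild-type hearts between the states and 2 in place of 1 in mutants. It also called Myh11 lower in wild-type TA at day 7 than in wild-type quadriceps (log2 fold change -0.52, DESeq2 adjusted p = 0.0463), which edgeR did not. With only the groups compared, the heart counts were 0 between genotypes at day 3, 0 between mutant states and 1 between wild-type states, and 257 genes were called in TA at day 3 in place of 1392. Over all genes, no filter called 3906 of 37179 from day 1 to day 3 in wild-type TA. In hearts it called 1457 of 35489 between genotypes at day 3, 1643 between mutant states, 122 between wild-type states and 338 for both factors. The first exercise cohort had 650 of 41372. Library totals called 10143 of 15499 in mutant TA, and 781 and 942 of 18433 in the heart. DESeq2 called 88 between wild-type and 1924 between mutant heart states. With only the groups compared, the heart numbers were 10, 4 and 63. Apart from the construction of these settings, the cause was not tested.

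With 1 library left out at a time, the count of members called ranged from 3 to 6 in wild-type TA from day 1 to day 3, from 2 to 4 between genotypes at day 3, from 1 to 3 for genotype by day, from 0 to 2 in the hearts of day 3 between genotypes and from 0 to 2 between mutant states, and reached 2 in the first exercise cohort. The 2 hour Yoda1 cohort is not counted here, since leaving out a treated library leaves 1. Of all genes, 2941 to 3776 were called in wild-type TA from day 1 to day 3. The genes called ranged from 431 to 1721 in TA between genotypes at day 3 and from 243 to 837 for genotype by day. They ranged from 24 to 1369 and 74 to 1462 in those heart comparisons, and from 1 to 975 in the first exercise cohort. The Myh4 share at day 7, mutant minus wild type, went from -2.08 to between -6.21 and 5.11 percentage points over all libraries left out, positive without library 1 of either genotype (5.11 and 4.40). The Myh7 share of hearts at day 3 went from -0.00202 to between -0.0272 and 0.0425. The replicate numbers were not taken to pair the libraries. With a replicate block the heart comparison of genotypes at day 3 called 2 members in place of 1, the Myh7 share there was 0.0572, Myh3 was called at TA day 3 (adjusted p = 0.0499) and Myh2 in the genotype by day test (adjusted p = 0.0303). Each library correlated best with its own number only for 6 hours of Yoda1. No paired analysis was possible for the 12 sorted-cell libraries with both genotypes and exercise, because their columns carry no usable numbers.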
